A study of Mus musculus with 9 samples.

Results

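Small leucine-rich proteoglycans (SLRPs) are secreted proteins built from leucine-rich repeats, most of which carry sugar chains. The 9 genes described here, Dcn, Bgn, Lum, Fmod, Prelp, Ogn, Omd, Aspn and Podn, were taken by their gene names from a table of read counts for 54532 mouse genes, and each name matched a single gene. The counts came from bulk mRNA sequencing of cultured adipose-derived stem cells (ASCs) of C57BL/6 mice, isolated from adipose tissue of subcutaneous (Sub-ASC), abdominal (Ab-ASC) or perivascular (PVASC) origin, with 3 libraries in each group and 9 in all. Nothing in the labels distinguishes the groups other than the tissue of origin: no genetic change and no treatment is listed. All cultures had been expanded in stem cell culture medium and were harvested at passages 3 to 6. The passage of each library, the age of the mice and any pooling of animals are not given in the sources used here, so passage may differ between groups. Nor do the labels say that the 3 libraries of a group came from separate mice or cultures, so p-values measure only the spread between these libraries, which may be technical. Because these are bulk samples, fewer cells of a type and less RNA per cell cannot be told apart.

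SLRPs are sorted into classes by sequence and gene structure. Decorin (Dcn), biglycan (Bgn) and asporin (Aspn) belong to class I, and decorin and biglycan carry chondroitin or dermatan sulfate chains. Fibromodulin (Fmod), lumican (Lum), PRELP and osteomodulin (Omd) belong to class II, in which keratan sulfate chains are typical, while osteoglycin (Ogn) is of class III and podocan (Podn) of class V. Most of these proteins bind collagen and influence how fibrils assemble, and several bind growth factors such as TGF-β or are sensed by Toll-like receptors. Decorin and lumican are abundant products of connective tissue fibroblasts, adipose stroma included.

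Sub-ASCs held most of the SLRP transcripts, and decorin made up most of those. On the FPKM scale (reads scaled to the gene's length and the library total), decorin averaged 1485 ± 121 in Sub-ASCs, 58.3 ± 17.2 in Ab-ASCs and 20.9 ± 0.873 in PVASCs (SD, n = 3 for each group). Relative to Sub-ASCs, biglycan went the other way, with 387 ± 23.0 in Sub-ASCs, 773 ± 57.9 in Ab-ASCs and 611 ± 22.4 in PVASCs. Both genes were lower in PVASCs than in Ab-ASCs. Among 54532 genes ranked by mean FPKM, decorin stood at place 11 in Sub-ASCs, 851 in Ab-ASCs and 2533 in PVASCs, whereas biglycan stood at 106, 33 and 45. Lumican, PRELP, osteoglycin and podocan were also far lower in Ab-ASCs and PVASCs than in Sub-ASCs, and fibromodulin, asporin and osteomodulin were scarce in every group.

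The sequence just before the transcription start is shown for 4 of the genes, because they stand for 3 of the patterns in these data: biglycan (higher outside Sub-ASCs), podocan and osteoglycin (lower outside Sub-ASCs, and lowest in Ab-ASCs) and asporin (highest in PVASCs). Each is the 250 bases upstream of a RefSeq start on GRCm38.p6, read 5′ to 3′ along the gene's own strand. The windows are chrX:73483351-73483600 for Bgn (plus strand), chr4:108031955-108032204 for Podn (minus strand, the first of 2 starts listed, which lies inside the span of the counted gene, since that span ends upstream at 108096445), chr13:49607765-49608014 for Ogn (plus strand) and chr13:49544193-49544442 for Aspn (plus strand). Capitals mark matches, on either strand, to the motifs searched for, namely the TATA motif TATAAA, the AP-1 motif TGANTCA, the GC box GGGCGG and the RUNX motif TGTGGT.
Bgn: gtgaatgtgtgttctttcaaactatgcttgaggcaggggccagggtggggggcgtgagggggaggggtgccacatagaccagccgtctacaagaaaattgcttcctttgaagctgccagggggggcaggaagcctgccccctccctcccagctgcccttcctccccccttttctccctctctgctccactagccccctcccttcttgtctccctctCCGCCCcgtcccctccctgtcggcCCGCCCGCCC
Podn: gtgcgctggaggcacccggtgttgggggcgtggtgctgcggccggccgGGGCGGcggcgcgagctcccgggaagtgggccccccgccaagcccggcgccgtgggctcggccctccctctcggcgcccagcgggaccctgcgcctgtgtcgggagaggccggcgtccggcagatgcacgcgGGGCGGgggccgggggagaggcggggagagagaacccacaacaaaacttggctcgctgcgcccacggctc
Ogn: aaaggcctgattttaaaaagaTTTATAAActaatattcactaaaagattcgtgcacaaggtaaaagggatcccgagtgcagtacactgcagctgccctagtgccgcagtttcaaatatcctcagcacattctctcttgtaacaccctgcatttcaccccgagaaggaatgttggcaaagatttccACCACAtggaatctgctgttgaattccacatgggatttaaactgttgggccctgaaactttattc
Aspn: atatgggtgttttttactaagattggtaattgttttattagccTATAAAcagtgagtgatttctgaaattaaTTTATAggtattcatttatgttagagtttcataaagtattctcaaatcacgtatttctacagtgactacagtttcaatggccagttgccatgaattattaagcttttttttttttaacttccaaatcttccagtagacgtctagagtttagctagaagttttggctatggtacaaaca

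In the Bgn window the capitals are GC box matches on the minus strand, whose first bases lie 34, 10 and 6 bases before the start, the latter pair overlapping. Podn had 2 GC boxes, at 202 and 70 bases, in a window of 78.0% G and C. The GC content was 64.4% for Bgn, 42% for Ogn and 30% for Aspn, against a median of 52.4% over 32851 mouse promoters. Ogn had 2 overlapping TATAAA matches at 229 and 227 bases and a RUNX match at 65 bases, and Aspn had TATAAA matches at 207 and 178 bases. Such matches are common: GGGCGG was found in 32.7% of all these promoter windows, TATAAA in 12.4%, TGTGGT in 14% and TGANTCA in 6.75%. None of the 4 motifs was found in the windows of Prelp (55.6% GC), Fmod (51.2%) or Omd (38.4%), nor at the second Podn start (64.0%). The RefSeq table held an entry for 7 of the 9 genes, Dcn and Lum being the others. A match describes letters in the window only.

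**Figure D1:**
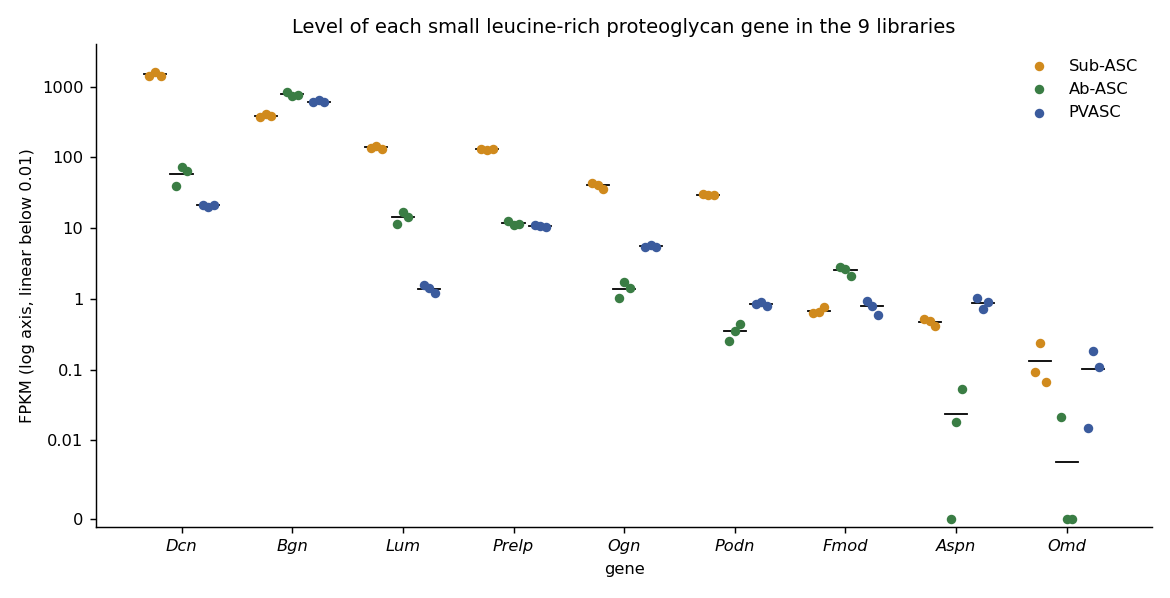
FPKM (vertical log axis, linear below 0.01) of the 9 SLRP genes along the horizontal axis, with a point for each library and a bar for the mean of each group of 3. Decorin, lumican, PRELP, osteoglycin and podocan are highest in the 3 Sub-ASC libraries, biglycan and fibromodulin in the 3 Ab-ASC libraries, and asporin in the 3 PVASC libraries.

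Library totals ranged from 20524173 to 29881036 counted reads, so that 3 reads, taken as the smallest measurable count, correspond to 0.0917 to 0.161 CPM (counts relative to library size, scaled by edgeR's TMM method), a limit that covers counting error only. The biological coefficient of variation was 5.69% in Sub-ASCs, 12.5% in Ab-ASCs and 3.85% in PVASCs. All 9 markers of mesenchymal stromal cells had reads in every library, with a summed level of 7051 to 7082 CPM in Sub-ASCs, 3701 to 3822 CPM in Ab-ASCs and 4366 to 4515 CPM in PVASCs. Its members moved in both directions, with 4 higher and 5 lower in PVASCs and 3 and 6 in Ab-ASCs, each against Sub-ASCs. Of all tested genes, 34.7% were higher and 35.7% lower in PVASCs, and 37% and 38.3% in Ab-ASCs, by the same edgeR test at an adjusted p of 0.05. Pdgfra averaged 2709 CPM in Sub-ASCs, 443 CPM in Ab-ASCs and 332 CPM in PVASCs, and Ly6a 2049, 21.8 and 111 CPM, whereas Thy1 averaged 333, 231 and 883 CPM. Markers of other cells differed between groups as well. The 11 mesothelial markers summed to 3.17 to 3.26 CPM in Sub-ASCs, where Upk1b, Lrrn4 and Muc16 had no read, to 127 to 136 CPM in Ab-ASCs and to 51.8 to 53.5 CPM in PVASCs. The 8 smooth muscle and pericyte markers summed to 116 to 123, 4459 to 5531 and 2862 to 3013 CPM, and the 12 proliferation markers to 73.4 to 80.3, 949 to 995 and 864 to 871 CPM, in the same order of groups. Acta2 alone averaged 52.8, 4436 and 2505 CPM, and of the 8 smooth muscle and pericyte markers all were higher in PVASCs than in Sub-ASCs, whereas in Ab-ASCs 5 were higher and 2 lower. Endothelial markers (8) summed to 206 to 218, 71.2 to 73.6 and 847 to 850 CPM, with 6 higher and 2 lower (Cldn5 and Tek) in PVASCs and all 8 lower in Ab-ASCs than in Sub-ASCs, and adipocyte markers (8, of which Lep had no read in any library) to 202 to 212, 51.7 to 56.2 and 72.9 to 78.1 CPM. Macrophage and leukocyte markers (9) summed to 283 to 291, 324 to 424 and 312 to 323 CPM, although 7 of the 9 were lower and 2 higher in PVASCs, and likewise in Ab-ASCs, than in Sub-ASCs (35.7% and 38.3% of all tested genes were lower). Ptprc averaged 8.94, 1.42 and 2.82 CPM and Cd68 32.8, 23.1 and 11.6 CPM, while Lyz2, named after its values were seen, averaged 162.5, 271 and 249 CPM and held most of each sum. The part of these differences in the SLRP results was not tested.

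Summed over the 9 genes, SLRPs took 1.21% ± 0.0849 of the reads in Sub-ASCs, 0.515% ± 0.0247 in Ab-ASCs and 0.391% ± 0.0133 in PVASCs (SD, n = 3). The summed FPKM was 2211 ± 148 in Sub-ASCs, 862 ± 38.4 in Ab-ASCs and 652 ± 21.9 in PVASCs, and the libraries of the groups did not overlap. Without decorin, the other 8 genes summed to 726 ± 26.8, 804 ± 55.7 and 631 ± 22.8 FPKM. The composition differed likewise. Decorin made up 67.1% ± 0.954 of the summed FPKM in Sub-ASCs, 6.83% ± 2.27 in Ab-ASCs and 3.21% ± 0.236 in PVASCs, while biglycan made up 17.5% ± 0.358, 89.6% ± 2.68 and 93.7% ± 0.317. In each Sub-ASC library decorin exceeded biglycan, by 3.71 to 3.94 times on the FPKM scale. In Ab-ASCs biglycan exceeded decorin by 9.99 to 21.4 times, and in PVASCs by 27.9 to 32.0 times. The remaining 7 genes held 15.4% ± 0.830 in Sub-ASCs, 3.53% ± 0.422 in Ab-ASCs and 3.10% ± 0.143 in PVASCs. No test was made on these shares and sums.

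**Figure D2:**
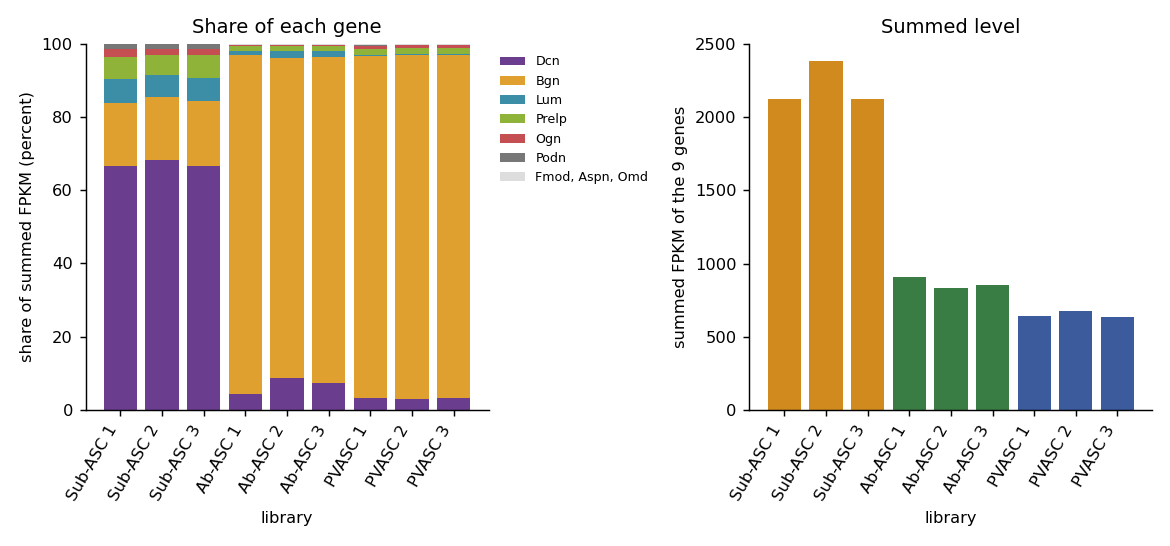
Left, the percent of the summed FPKM held by each SLRP gene in each of the 9 libraries. Right, the summed FPKM of the 9 genes per library, from an axis that starts at 0. Decorin fills 66.5% to 68.2% of each Sub-ASC bar and at most 8.74% of any other bar, where biglycan fills at least 87.3%.

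The order of the genes by mean FPKM also differed. In Sub-ASCs it ran decorin, biglycan, lumican, PRELP, osteoglycin, podocan, fibromodulin, asporin and osteomodulin, and the libraries of no neighbouring pair overlapped. By ratio of their means, lumican and PRELP were closest there, at 138 ± 5.71 and 130 ± 0.795 FPKM. In Ab-ASCs the order was biglycan, decorin, lumican, PRELP, fibromodulin, osteoglycin, podocan, asporin and osteomodulin, and lumican (14.3 ± 2.69 FPKM) overlapped PRELP (11.8 ± 0.686 FPKM), as asporin overlapped osteomodulin. In PVASCs biglycan and decorin were followed by PRELP (10.7 ± 0.491 FPKM), osteoglycin (5.50 ± 0.208 FPKM) and lumican (1.39 ± 0.189 FPKM). Asporin, podocan and fibromodulin came next in PVASCs, at 0.887 ± 0.154, 0.842 ± 0.0537 and 0.781 ± 0.172 FPKM, and overlapped each other in turn. Osteomodulin was last in each group.

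Of the 9 genes, 8 had enough reads to be tested, and osteomodulin did not. By edgeR's quasi-likelihood test at an adjusted p of 0.05, 7 of the 8 differed between PVASCs and Sub-ASCs, where 70.4% of 16526 tested genes did. Of these, 2 were higher in PVASCs (34.7% of all genes were) and 5 were lower (35.7%). All 8 differed between Ab-ASCs and Sub-ASCs (75.3% of all genes), 2 being higher in Ab-ASCs (37%) and 6 lower (38.3%). All 8 also differed between PVASCs and Ab-ASCs (56.9% of all genes), with 3 higher in PVASCs (24.7%) and 5 lower (32.1%). With most genes called, these counts say little about the SLRPs. Sizes are given as a description, since the SLRPs were chosen with earlier results of these data known. TMM scaling also keeps the medians over all genes small, so these are no independent contrast. Over the 8 genes, log2 fold changes had a median of -3.39 for PVASCs against Sub-ASCs, -3.74 for Ab-ASCs against Sub-ASCs and -0.46 for PVASCs against Ab-ASCs, beside medians of -0.01, -0.03 and -0.06 over all tested genes. Each pair of comparisons shares 1 group of libraries. Fold changes are on TMM-scaled counts, whereas FPKM uses the library total, so ratios of FPKM differ from them. The TMM factors were 0.977 to 0.981 in Sub-ASCs, 0.908 to 0.953 in Ab-ASCs and 1.09 to 1.10 in PVASCs. Fibromodulin between PVASCs and Sub-ASCs, the comparison not called, was the case in which the libraries of a tested SLRP overlapped between groups.

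**Figure D3:**
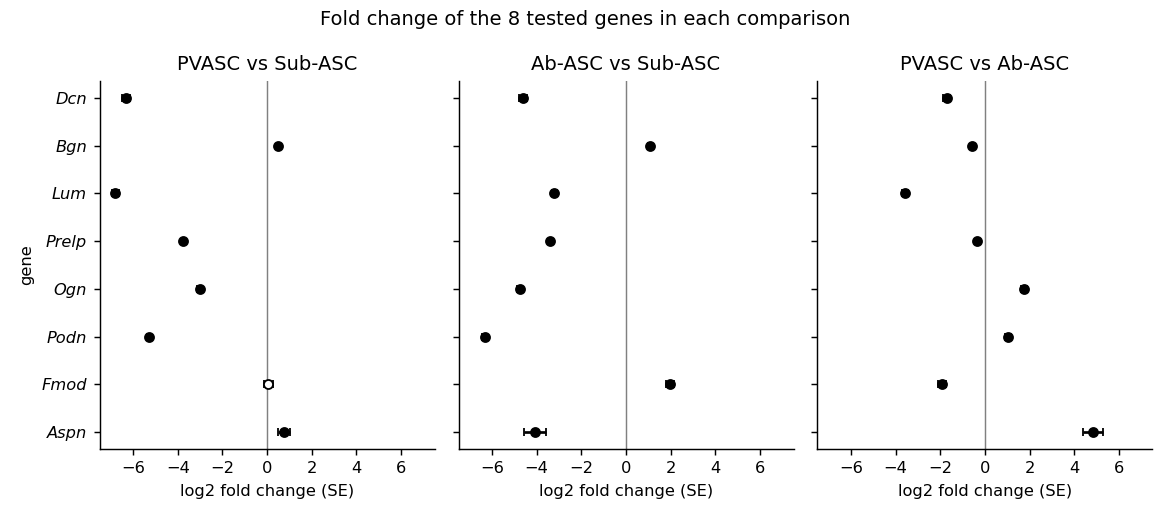
Log2 fold change with its SE for the 8 tested SLRP genes in the 3 comparisons, positive where the group named first is higher. Filled points passed an adjusted p of 0.05. Fibromodulin between PVASCs and Sub-ASCs (open point, 0.04) is the exception, and decorin, lumican and podocan lie between -6.79 and -3.21 in both comparisons with Sub-ASCs.

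Decorin, which coats collagen fibrils and binds TGF-β, gave 1417, 1625 and 1413 FPKM in Sub-ASC replicates 1 to 3, 39.1, 72.6 and 63.1 FPKM in Ab-ASCs and 21.5, 19.9 and 21.3 FPKM in PVASCs. Each group formed its own level, with Ab-ASC replicate 1 below the other Ab-ASC libraries. The level in PVASCs was 79.3 times lower than in Sub-ASCs (log2 fold change -6.31, SE 0.19, adjusted p = 1.52e-11). Against Ab-ASCs it was 3.25 times lower (-1.70, SE 0.16, adjusted p = 2.33e-06), and Ab-ASCs were 24.4 times below Sub-ASCs (-4.61, SE 0.17, adjusted p = 1.34e-10). Even so, decorin kept 3150 to 10004 reads in each Ab-ASC and PVASC library, so it was low there but well measured.

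Biglycan, the nearest relative of decorin and a ligand of Toll-like receptors when released from matrix, gave 368, 413 and 381 FPKM in Sub-ASCs, 837, 725 and 758 FPKM in Ab-ASCs and 599, 637 and 597 FPKM in PVASCs. It was thus lowest in Sub-ASCs and highest in Ab-ASCs. Ab-ASCs exceeded Sub-ASCs 2.10-fold (log2 fold change 1.07, SE 0.07, adjusted p = 2.68e-08). Between PVASCs and Sub-ASCs it was 1.41-fold (0.50, SE 0.07, adjusted p = 3.48e-05), and PVASCs were 1.48 times below Ab-ASCs (-0.57, SE 0.07, adjusted p = 2.75e-05).

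Asporin, the class I protein without the usual glycosaminoglycan chain, was scarce. It had 29, 30 and 26 reads in Sub-ASCs, 0, 1 and 3 reads in Ab-ASCs and 72, 46 and 62 reads in PVASCs. All Ab-ASC libraries were at or below the smallest measurable count, and all PVASC libraries were above all Sub-ASC libraries. From summed reads scaled to library size, PVASCs had 30.5 times the level of Ab-ASCs (exact 95% interval 11.7 to 113, counting error only) and Sub-ASCs had 18.02 times (6.78 to 67.6), both differences being called (adjusted p = 3.01e-06 and 1.18e-05). Of the 4 Ab-ASC reads, 3 came from replicate 3, and without that library the fitted log2 fold change went from 4.83 to 6.04 for PVASCs against Ab-ASCs and from -4.07 to -5.29 for Ab-ASCs against Sub-ASCs, both still called. Such fits rest on very few reads, since the remaining Ab-ASC libraries had 0 and 1 reads. Without Ab-ASC replicate 1 they were 4.36 and -3.60. The 1.68-fold difference between PVASCs and Sub-ASCs (log2 fold change 0.75, SE 0.25, adjusted p = 0.0193) lost its call without Sub-ASC replicate 3 (0.66, adjusted p = 0.0761), without PVASC replicate 1 (0.65, adjusted p = 0.0825) and without PVASC replicate 3 (0.74, adjusted p = 0.055).

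Lumican, a keratan sulfate proteoglycan that spaces collagen fibrils, showed the widest span among the 8 tested SLRP genes. It gave 136.8, 144.4 and 133.2 FPKM in Sub-ASCs, 11.5, 16.9 and 14.5 FPKM in Ab-ASCs and 1.57, 1.40 and 1.19 FPKM in PVASCs. The groups were stepwise, with Ab-ASCs between the others. Lumican was 110.7 times lower in PVASCs than in Sub-ASCs (log2 fold change -6.79, SE 0.14, adjusted p = 3.63e-13). The fall was 12.0-fold from Ab-ASCs to PVASCs (-3.59, SE 0.13, adjusted p = 6.10e-10) and 9.22-fold from Sub-ASCs to Ab-ASCs (-3.21, SE 0.11, adjusted p = 4.18e-11). The ratio of decorin to lumican, on the FPKM scale, was 10.7 ± 0.463 in Sub-ASCs, 4.02 ± 0.541 in Ab-ASCs and 15.2 ± 2.27 in PVASCs, so the pair was not reduced in step.

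PRELP, which links matrix collagen to basement membranes, gave 130.1, 128.9 and 130.4 FPKM in Sub-ASCs, 12.5, 11.2 and 11.5 FPKM in Ab-ASCs and 11.2, 10.9 and 10.2 FPKM in PVASCs. On this scale the highest PVASC library lay just below the lowest Ab-ASC library, and both groups lay far below Sub-ASCs. The difference from Sub-ASCs was 13.5-fold in PVASCs (log2 fold change -3.75, SE 0.07, adjusted p = 1.93e-13) and 10.5-fold in Ab-ASCs (-3.40, SE 0.07, adjusted p = 3.79e-13). PVASCs were 1.28 times below Ab-ASCs (-0.36, SE 0.07, adjusted p = 6.24e-04). In FPKM, which is not TMM-scaled, the means were closer, at 10.7 in PVASCs and 11.8 in Ab-ASCs, so the size of this difference depends on the scaling.

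Fibromodulin, which competes with lumican for collagen, was a class II gene with its highest level in Ab-ASCs. It gave 0.636, 0.653 and 0.754 FPKM in Sub-ASCs, 2.82, 2.64 and 2.11 FPKM in Ab-ASCs and 0.941, 0.803 and 0.600 FPKM in PVASCs. Ab-ASC libraries stood above all others, and those of PVASCs and Sub-ASCs overlapped. The level in Ab-ASCs was 3.86 times that in Sub-ASCs (log2 fold change 1.95, SE 0.18, adjusted p = 6.82e-07) and 3.76 times that in PVASCs (-1.91 for PVASCs against Ab-ASCs, SE 0.17, adjusted p = 1.94e-06). Between PVASCs and Sub-ASCs no difference was called (0.04, SE 0.20, adjusted p = 0.871).

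Osteomodulin, known from bone and teeth, had 5, 14 and 4 reads in Sub-ASCs, 1, 0 and 0 reads in Ab-ASCs and 1, 11 and 7 reads in PVASCs. The libraries of Sub-ASCs and PVASCs overlapped, and PVASC replicate 1 had as few reads as Ab-ASC replicate 1. The ratio of summed reads scaled to library size was 0.661 for PVASCs over Sub-ASCs (exact 95% interval 0.341 to 1.27). Against the single Ab-ASC read it was 12.9 for PVASCs (2.05 to 536) and 19.5 for Sub-ASCs (3.17 to 803). These intervals cover counting error only. Without the filter on low counts, edgeR called it lower in Ab-ASCs than in Sub-ASCs (adjusted p = 0.000919) and PVASCs (adjusted p = 0.0115). It also passed the filter in some fits with 1 library left out. There the difference between PVASCs and Ab-ASCs was not called without Sub-ASC replicate 1, Ab-ASC replicate 2, Ab-ASC replicate 3 or PVASC replicate 3.

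Osteoglycin, a class III protein also called mimecan, gave 43.6, 40.4 and 35.9 FPKM in Sub-ASCs, 1.03, 1.72 and 1.42 FPKM in Ab-ASCs and 5.44, 5.73 and 5.33 FPKM in PVASCs. Here PVASCs lay between the other groups. Osteoglycin was 8.11 times lower in PVASCs than in Sub-ASCs (log2 fold change -3.02, SE 0.11, adjusted p = 6.44e-11) and 27.3 times lower in Ab-ASCs (-4.77, SE 0.13, adjusted p = 4.60e-12). PVASCs exceeded Ab-ASCs 3.36-fold (1.75, SE 0.13, adjusted p = 4.52e-07).

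Podocan, a class V protein described in smooth muscle and known to bind collagen, gave 30.1, 29.0 and 29.3 FPKM in Sub-ASCs, 0.251, 0.347 and 0.442 FPKM in Ab-ASCs and 0.839, 0.898 and 0.790 FPKM in PVASCs. Sub-ASC libraries stood far above the rest, and PVASC libraries above those of Ab-ASCs. The difference was 39.0-fold between Sub-ASCs and PVASCs (log2 fold change -5.29, SE 0.10, adjusted p = 2.11e-13) and 80.0-fold between Sub-ASCs and Ab-ASCs (-6.32, SE 0.11, adjusted p = 1.69e-13). PVASCs were 2.05 times above Ab-ASCs (1.04, SE 0.15, adjusted p = 9.42e-05). Podocan shares part of its span and its strand with Scp2, a sterol carrier gene, so the counting of reads in the shared part is uncertain. Scp2 had 3537, 3945 and 4041 reads in Sub-ASCs, 1274, 1464 and 1457 in Ab-ASCs and 2405, 2123 and 2327 in PVASCs. This is the order of groups seen for podocan, and the part of Scp2 reads in the podocan counts was not tested.

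Ab-ASC replicate 1 was the lowest of its group for decorin, lumican, osteoglycin and podocan, and for asporin with 0 reads. Its CPM was 0.602 times the mean of the others for Dcn, 0.767 for Lum, 0.682 for Ogn and 0.663 for Podn. For Bgn the ratio was 1.18, for Fmod 1.24 and for Prelp 1.15, beside a median of 1.03 and a 5th percentile of 0.482 over all tested genes. Without this library the Ab-ASC calls of the 8 genes held in both comparisons.

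Of the 9 genes, 7 lie in 3 clusters with other SLRP genes. On chromosome 10, Dcn, Lum, Kera and Epyc follow each other on the plus strand within 202.8 kb, with Dcn at chr10:97479609-97518143 and Lum at chr10:97565128-97572703. Dcn and Lum were both highest in Sub-ASCs, keratocan (Kera) had no read in any library, and epiphycan (Epyc), at the far end, had 1, 0 and 0 reads in Sub-ASCs, 18, 23 and 27 in Ab-ASCs and 4, 10 and 9 in PVASCs. The lowest Epyc level was thus in the group with the highest Dcn and Lum levels.

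On chromosome 13, Ecm2, Aspn, Omd and Ogn follow each other on the plus strand within 119.7 kb, with Aspn at chr13:49544443-49567565, Omd at chr13:49582462-49592822 and Ogn at chr13:49608046-49624501. Each of Aspn, Omd and Ogn had its lowest mean FPKM in Ab-ASCs, and Ecm2 was about as low in PVASCs (0.223 FPKM) as in Ab-ASCs (0.235 FPKM). All of them lie within the span of Cenpp, a centromere protein gene on the opposite strand, and strand-specific counting is not stated. Cenpp had 13, 16 and 5 reads in Sub-ASCs, 83, 109 and 99 in Ab-ASCs and 101, 89 and 100 in PVASCs. The part of Cenpp reads in the counts of these genes was not tested. On chromosome 1, Prelp (chr1:133910304-133921414, minus strand) lies 2.31 kb from Optc and 115.8 kb from Fmod (chr1:134037254-134048277, plus strand), and the levels of Prelp and Fmod had different orders across the groups. An antisense gene that overlaps Prelp, Gm15851, had 0 to 4 reads. Bgn (chrX:73483602-73495933) and Podn (chr4:108014791-108096445) lie outside such clusters. Positions are those of the count table, which for all 9 genes equal those of GENCODE M21 on GRCm38.

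**Figure D4:**
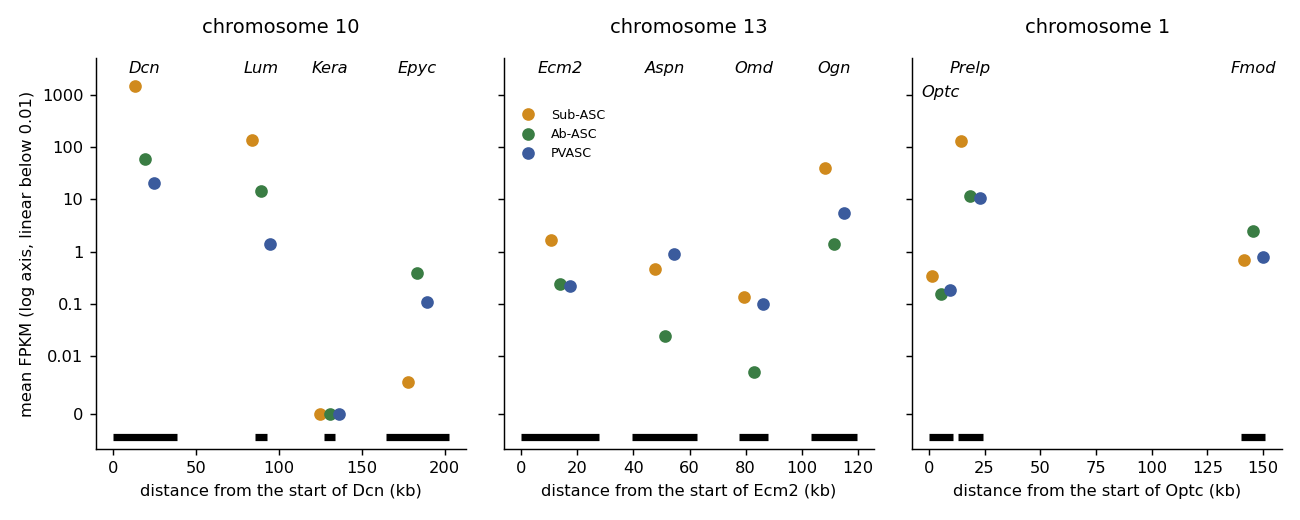
Mean FPKM (vertical log axis, linear below 0.01) of the genes in the 3 SLRP clusters, placed by distance in kb from the first gene, with black bars for the spans of the genes and points slightly offset for each group. Dcn and Lum fall from Sub-ASCs to PVASCs, Epyc is highest in Ab-ASCs, and Aspn, Omd and Ogn are lowest in Ab-ASCs.

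Outside these 9 genes, 8 of 9 other genes of the family had enough reads to be tested. Against Sub-ASCs, 3 were higher and 4 lower in PVASCs and likewise in Ab-ASCs, and 3 were lower and the other 5 not called in PVASCs against Ab-ASCs. The share called was 87.5% in both comparisons with Sub-ASCs (70.4% and 75.3% of all tested genes) and 37.5% between PVASCs and Ab-ASCs, below the 56.9% of all tested genes. Tsukushi (Tsku), a secreted inhibitor of BMP and Wnt signals, was the most abundant of them, with mean levels of 38.0 CPM in Sub-ASCs, 123 CPM in Ab-ASCs and 85.6 CPM in PVASCs. It followed the order of biglycan, being 2.25 times higher in PVASCs (log2 fold change 1.17, adjusted p = 1.92e-08) and 3.25 times higher in Ab-ASCs (1.70, adjusted p = 5.32e-10) than in Sub-ASCs, and lower in PVASCs than in Ab-ASCs (-0.53, adjusted p = 6.31e-05). Podnl1, the relative of podocan, went opposite to podocan, at 1.01, 3.84 and 2.36 CPM, and was higher in both PVASCs (1.22, adjusted p = 6.45e-04) and Ab-ASCs (1.91, adjusted p = 1.15e-05). Ecm2, in the cluster of osteoglycin, was lower in PVASCs (-3.04, adjusted p = 1.40e-07) and Ab-ASCs (-2.73, adjusted p = 5.26e-07) than in Sub-ASCs. Chadl (-1.44 and -0.84), Nyx (-2.07 and -1.33) and Optc (-1.0 and -1.09) were also lower in PVASCs and Ab-ASCs than in Sub-ASCs, at levels of at most 1.98 CPM. Chad was not called in any comparison.

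Genes for the sugar chains of SLRPs varied in both directions, and the shares called were not all above those of all tested genes (70.4% for PVASCs with Sub-ASCs, 75.3% for Ab-ASCs with Sub-ASCs and 56.9% for PVASCs with Ab-ASCs). Of 22 genes for chondroitin and dermatan sulfate synthesis, all tested, 8 were higher and 12 lower in PVASCs than in Sub-ASCs, 6 and 9 when Ab-ASCs were set against Sub-ASCs, and 6 and 12 for PVASCs against Ab-ASCs, with medians of -0.26, -0.06 and -0.23 on the log2 scale and 90.9%, 68.2% and 81.8% of the genes called. Chst11, a chondroitin 4-O-sulfotransferase, averaged 55.1 CPM in Sub-ASCs, 938 CPM in Ab-ASCs and 300 CPM in PVASCs, which is 17.0 times (4.09, adjusted p = 1.08e-14) and 5.44 times (2.44, adjusted p = 2.62e-13) the Sub-ASC level. Chst15, which adds a further sulfate to such chains, was 10.8 times lower in Ab-ASCs than in Sub-ASCs (-3.43, adjusted p = 1.19e-12). Chst3, a 6-O-sulfotransferase, was 6.56 times higher in PVASCs than in Sub-ASCs (2.71, adjusted p = 1.31e-06), at 2.40 CPM. For keratan sulfate, 7 of 8 genes were tested, with 3 higher and 2 lower in PVASCs and 5 and 1 in Ab-ASCs, both against Sub-ASCs, and 1 and 3 in PVASCs against Ab-ASCs, which is 71.4%, 85.7% and 57.1% called. Chst1, a keratan sulfate sulfotransferase, was 5.02 times higher in PVASCs (2.33, adjusted p = 1.52e-10) and 3.25 times higher in Ab-ASCs (1.70, adjusted p = 4.12e-09) than in Sub-ASCs.

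Among other matrix proteoglycans, 8 of 12 were tested, and 4 were higher and 3 lower in PVASCs, as in Ab-ASCs, against Sub-ASCs, while PVASCs against Ab-ASCs gave 6 and 2 (87.5%, 87.5% and 100% called, beside 70.4%, 75.3% and 56.9% of all tested genes). The lubricant proteoglycan Prg4 had 343 CPM in Sub-ASCs, 1.84 CPM in Ab-ASCs and 2.74 CPM in PVASCs, a difference of 125 times for PVASCs (-6.97, adjusted p = 6.21e-14). Esm1, the endothelial proteoglycan endocan, exceeded the Sub-ASC level 70.9 times in PVASCs (6.15, adjusted p = 3.83e-14) and 2.07 times in Ab-ASCs (1.05, adjusted p = 9.15e-07). The pericyte proteoglycan gene Cspg4 was 49.3 times higher in PVASCs (5.62, adjusted p = 1.09e-13) and 21.6 times higher in Ab-ASCs (4.43, adjusted p = 9.24e-13) than in Sub-ASCs. The endothelial and the smooth muscle and pericyte marker sums given above were larger in PVASCs as well, relative to Sub-ASCs, although the endothelial genes Cldn5 and Tek were lower there. The smooth muscle and pericyte sum was largest in Ab-ASCs. The part of these markers in the result was not tested.

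Transcripts of the collagens that SLRPs bind were called at shares of 85.7% (PVASCs with Sub-ASCs), 78.6% (Ab-ASCs with Sub-ASCs) and 85.7% (PVASCs with Ab-ASCs), beside 70.4%, 75.3% and 56.9% of all tested genes. Of 15 collagen genes, 14 were tested, and 4 were higher and 8 lower in PVASCs, 5 and 6 in Ab-ASCs, each against Sub-ASCs, and 5 and 7 in PVASCs against Ab-ASCs. Col3a1, the type III collagen chain, fell from 9107 CPM in Sub-ASCs to 1208 CPM in Ab-ASCs (-2.91, adjusted p = 6.82e-14) and 1109 CPM in PVASCs (-3.04, adjusted p = 5.12e-14). Col11a1, a fibril-nucleating chain, rose from 0.199 CPM in Sub-ASCs to 8.24 CPM in Ab-ASCs (5.34, adjusted p = 3.36e-10) and 51.3 CPM in PVASCs (7.97, adjusted p = 1.15e-12). Of 15 genes for fibril assembly partners, 5 were higher and 9 lower in PVASCs, 9 and 6 in Ab-ASCs, each against Sub-ASCs, and 2 and 10 in PVASCs against Ab-ASCs (93.3%, 100% and 80% called). Tnxb (tenascin-X), which bridges collagen fibrils, was 38.9 times lower in PVASCs (-5.28, adjusted p = 1.23e-14) and 23.9 times lower in Ab-ASCs (-4.58, adjusted p = 1.32e-14) than in Sub-ASCs. Thbs1 (thrombospondin-1), an activator of latent TGF-β, was 13.9 times higher in PVASCs (3.79, adjusted p = 1.23e-14) and 19.99 times higher in Ab-ASCs (4.32, adjusted p = 8.37e-15). Elastin (Eln) was 5.70 times higher in PVASCs than in Ab-ASCs (2.51, adjusted p = 8.89e-06) but below Sub-ASCs in both, the order seen for podocan and osteoglycin.

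Of 21 receptor and growth factor genes whose products SLRPs bind, 19 were tested. In PVASCs 8 were higher and 9 lower and in Ab-ASCs 4 and 14, each against Sub-ASCs, and 9 and 9 in PVASCs against Ab-ASCs (89.5%, 94.7% and 94.7% called, beside 70.4%, 75.3% and 56.9% of all tested genes). Tlr2, a receptor for biglycan, was lower in PVASCs (-3.28, adjusted p = 9.64e-12) and Ab-ASCs (-2.49, adjusted p = 9.89e-11) than in Sub-ASCs. Wisp1, a matricellular ligand of decorin and biglycan, was higher in both (3.70, adjusted p = 9.36e-13, and 3.15, adjusted p = 3.80e-12). Bmp4, a ligand of biglycan, averaged 6.07 CPM in Sub-ASCs, 1.49 CPM in Ab-ASCs and 49.7 CPM in PVASCs, which is 33.2 times higher in PVASCs than in Ab-ASCs (5.05, adjusted p = 2.34e-11).

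Among proteases able to process SLRPs, most were lower outside Sub-ASCs, beside 35.7% of all tested genes that were lower in PVASCs and 38.3% in Ab-ASCs. Of 12 genes 11 were tested, with 1 higher and 10 lower in PVASCs and 3 and 8 in Ab-ASCs, each against Sub-ASCs, at medians of -2.05 and -1.63, and 3 higher and 7 lower in PVASCs against Ab-ASCs, where 24.7% of all tested genes were higher and 32.1% lower. Mmp3 (stromelysin-1) had 5067 CPM in Sub-ASCs and 294 CPM in PVASCs, a 17.2-fold difference (-4.11, adjusted p = 2.12e-14). Htra1, a serine protease that degrades decorin, was 14.7 times lower in Ab-ASCs than in Sub-ASCs (-3.87, adjusted p = 2.48e-13). Tll1, of the family of proteases that trim the propeptides of collagen and biglycan, was higher in PVASCs (5.39, adjusted p = 5.34e-13) and Ab-ASCs (3.28, adjusted p = 6.67e-11) than in Sub-ASCs.

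**Figure D5:**
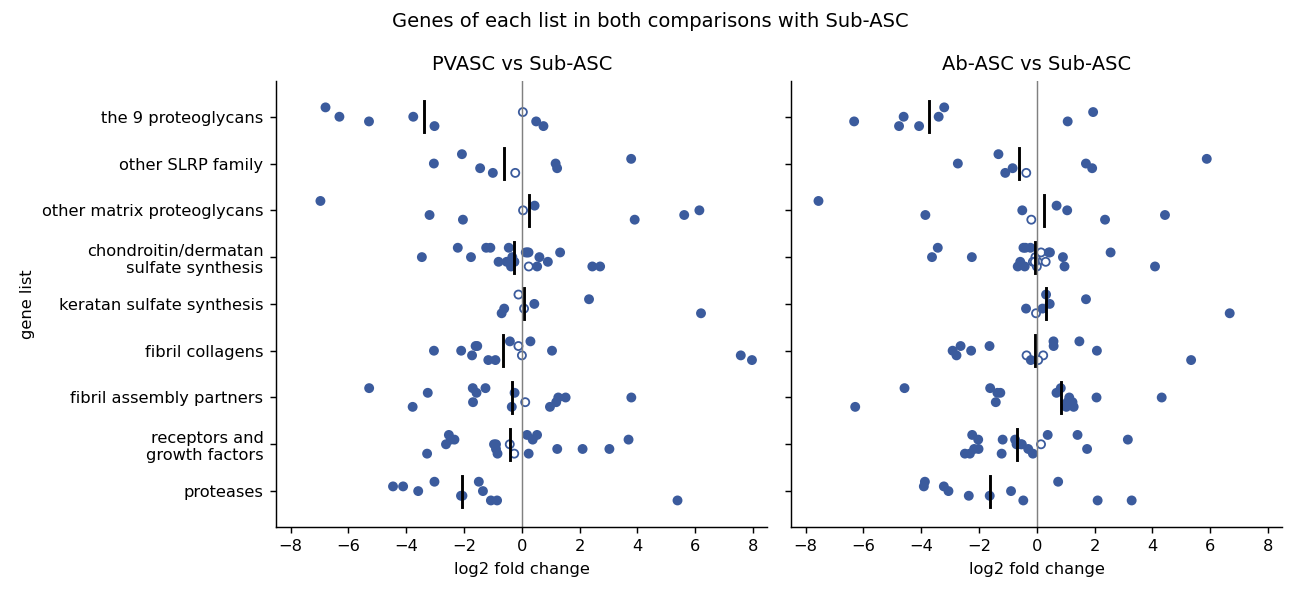
Log2 fold change of each tested gene of the 9 SLRPs and of 8 related gene lists, for PVASCs and for Ab-ASCs against Sub-ASCs. Filled points passed an adjusted p of 0.05 and the vertical bar is the median of the list, which is -3.39 and -3.74 for the SLRPs and -2.05 and -1.63 for the proteases.

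The genes whose log2 CPM was most like that of each SLRP were ranked by Pearson's r over the 9 libraries, among protein-coding genes that were tested. Since the libraries fall into 3 groups, r reflects mainly the group means, and it is given as a description. Prelp was matched most closely by Il17ra (r = 0.9998), Adamts15 and Ly6e, and 410 genes had r above 0.99 with it. Podn was matched by Scara5 (r = 0.9999), Il33 and Slco3a1, and 252 genes passed 0.99. For Dcn the closest were Zc3hav1 (r = 0.9986), Tmem243 and Jak1, and for Lum Tacc1 (r = 0.9989), Pygl and Stx11, with 131 and 67 genes past 0.99. Genes close to Ogn included Lrg1 (r = 0.9985) and Ifit3, with 127 genes past 0.99, and Bgn was closest to Asns (r = 0.9990), Haus4 and Eif3c, with 51. Fewer genes resembled the scarce members: 4 for Fmod, led by Pigu (r = 0.9934), Cmtm6 and Nfkb2, and 3 for Aspn, led by Prex2 (r = 0.9918), Zfp955a and Anp32a.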

How the data were processed

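The authors isolated ASCs from 3 mouse adipose tissues, cultured them and sequenced mRNA, and deposited raw counts of reads per gene for 9 libraries with gene length and position. Samples were grouped by the tissue given in the labels. The submitters' processing notes list CASAVA 1.8, Bowtie 0.12.2 and featureCounts 1.5.0-p3, and the builds mm8 and mm10, without their roles; strandedness is not given in the sources used here. The SLRP genes and all gene lists were chosen with earlier results of these data known. In edgeR 4.0.16 (R 4.3.3), counts were filtered by filterByExpr and scaled by TMM, and all 9 libraries entered a single quasi-likelihood fit without covariates. P-values were adjusted by Benjamini-Hochberg over 16526 genes. SE was the absolute log2 fold change divided by the root of F. FPKM used gene length and library total. The fit was first tested on simulated data. Genes named are the 9 SLRPs, their family, overlapping genes, up to 3 called genes per list and comparison with the largest fold change, and the 3 most similar genes per SLRP (log2 CPM with a prior count of 2), of which 1 is not reported here. Alternatives were DESeq2 1.42.0, RLE factors, other filters, 2-group fits, a replicate block, a fold cutoff, other FPKM scalings and leaving out each library.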

Additional observations from a re-analysis of the deposited data

How the results depend on the processing

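Directions and calls of the 8 tested genes held under DESeq2, RLE size factors, no low-count filter and fits of only the groups compared. Over the alternatives, 372 of their fold changes kept direction and call, 7 lost the call and 2 turned. Fibromodulin in PVASCs against Sub-ASCs, not called, turned from 0.04 to -0.01 without Sub-ASC replicate 1 and -0.11 without PVASC replicate 1, in a range of -0.11 to 0.21 over the left-out libraries. Asporin in that comparison lost its call without Sub-ASC replicate 3, PVASC replicate 1 or PVASC replicate 3. Leaving out single libraries gave 6 to 7 called SLRPs for PVASCs against Sub-ASCs and 8 to 9 in the other comparisons. Osteomodulin then passed the filter in some fits, but not each of these called it. For PVASCs against Ab-ASCs it was tested but not called without Sub-ASC replicate 1, Ab-ASC replicate 2 or 3, or PVASC replicate 3. Requiring 10 reads in every library removed asporin. A cutoff of 1 on the absolute log2 fold change left 5, 6 and 8 called SLRPs (PVASCs with Sub-ASCs, PVASCs with Ab-ASCs, Ab-ASCs with Sub-ASCs), dropping Bgn and Aspn from the first and Bgn and Prelp from the second, and took the calls over all genes from 11628, 9396 and 12442 to 5328, 2551 and 6241. Between PVASCs and Ab-ASCs the balance over all genes moved from 4088 higher and 5308 lower to 1673 and 878, and to 4305 and 4149 when only those groups were fitted, so the shares of all genes given for that comparison depend on this choice. Of the other lists' counts, 32 moved by over 1.5 times.

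The summed level of the 9 genes was 7436, 2754 and 2159 in Sub-ASCs, Ab-ASCs and PVASCs as TPM, a unit with another total, and 924 in Ab-ASCs and 597 in PVASCs as FPKM on the TMM-scaled library size. The ratio of Sub-ASCs to PVASCs was 3.39 as FPKM, 3.44 as TPM and 3.78 with TMM. Without single libraries the summed FPKM was 2125 to 2254, 841 to 878 and 640 to 660.

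The labels number the libraries 1 to 3 in each group, but deviations of same-numbered libraries correlated at only -0.0514 to 0.095, so the numbers were not taken to pair them. With the replicate block, 7, 8 and 8 SLRPs were called, the same genes as without it, and 11458, 9183 and 12302 genes in all. In their deviations from the group means, PVASC libraries correlated best with the Sub-ASC library of the same number, at only 0.0226 to 0.0309. In the other comparisons this held only for Ab-ASC replicate 2 with Sub-ASC replicate 2, at 0.095. Depth limits osteomodulin and asporin, which had at most 14 and 72 reads in any library.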
